A study of Oryza sativa with 17 samples.

Results

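The DREB1 genes of rice, also named CBF genes, and the ICE genes are the central regulators of the cold response. By their locus identifiers 10 genes of this group were followed, the 8 DREB1 genes OsDREB1A to OsDREB1H and the 2 ICE genes OsICE1 and OsICE2. Of these 10 genes, 9 were in the deposited table of 23223 genes, and OsDREB1F (LOC_Os01g73770) was not analysed here. The genes were listed by family, with earlier results of these data known. The list stops at OsDREB1H, so counts and medians of DREB1 genes below leave out OsDREB1I and OsDREB1J, which are given apart.

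ICE proteins are bHLH transcription factors that bind E-box elements in the promoters of DREB1 genes, a step first described in Arabidopsis. DREB1 proteins are AP2/ERF transcription factors that bind the DRE/CRT element in genes for dehydrins, sugar synthesis and membrane proteins. In rice, OsDREB1A and OsDREB1B are known for their rapid induction when seedlings are moved into the cold.

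The libraries were made from whole germinating seeds of WR04-6, a weedy rice, and QSZ, a cultivated rice, kept at 10 °C. All seeds had an oven treatment against dormancy and lay on moist filter paper under a daily light cycle. They were collected at 3 time points, given as days after imbibition (DAI), namely 10, 12 and 14 DAI. Each group was a single accession at a single time point with 3 libraries, except QSZ at 10 DAI with 2 libraries, which gave 17 libraries in 6 groups. All libraries came from the cold, so differences between accessions and between time points in the cold were measured, and the response to cold itself was not. In the germination tests of the study at 10 °C, QSZ began to germinate at 12 DAI and WR04-6 began before 10 DAI. WR04-6 also had a much higher germination rate at 14 DAI. How far the seeds of a library had germinated was not measured here, so accession and progress of germination cannot be told apart at any DAI.

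The libraries held 33280479 to 72494532 estimated counts, with the lowest total in QSZ at 10 DAI. The seed identity of the samples was seen in the storage protein gene GluA1, which ranged from 902 to 2591 FPKM (fragments scaled to gene length and library size) in WR04-6 and from 2047 to 8293 FPKM in QSZ. The late-embryo gene Emp1 had a median of 224 FPKM in WR04-6 and 2718 FPKM in QSZ, and the 3 green leaf genes checked had medians of 0.0587 to 2.11 FPKM, with CAB at 0 in some QSZ libraries of 12 and 14 DAI. RAmy1A, an alpha-amylase gene of germinating grain, ranged from 11.7 to 70.0 FPKM in WR04-6 and from 12.6 to 883 FPKM in QSZ. In a whole-seed sample, fewer cells of a type and less RNA per cell cannot be told apart. Fold changes below are log2 ratios from edgeR after TMM scaling, and a gene was called a DEG when the Benjamini-Hochberg (BH) adjusted p over 21949 tested genes was below 0.05 and the log2 fold change was at least 1 in either direction. All 9 genes passed the filter on low values. FPKM was not TMM-scaled, and on the log2(FPKM + 0.1) scale the median of all tested genes was 0.261, 0.427 and 0.349 higher in WR04-6 at 10, 12 and 14 DAI, against 0.03, 0.06 and 0.08 in edgeR.

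The main feature of these genes was high expression of most of the DREB1 genes followed here in WR04-6 at 14 DAI. There, 3 of the 7 DREB1 genes were up-regulated against QSZ (OsDREB1B, OsDREB1G and OsDREB1H) and OsICE2 was down-regulated. OsICE1 was not a DEG at any time point in the main edgeR fit. At 14 DAI, 21.3% of all tested genes were DEGs, 10.5% up-regulated and 10.9% down-regulated, and the 9 genes gave 4 DEGs. At 10 DAI, 1 of the 9 genes was a DEG (OsDREB1D, higher in WR04-6), against 23.6% of all tested genes, 12.1% higher and 11.4% lower. At 12 DAI, 2 of the 9 genes were DEGs (OsDREB1C and OsDREB1G, both lower in WR04-6), against 29.5% of all tested genes, 16.3% higher and 13.2% lower. In FPKM, WR04-6 and QSZ were fully apart, with no overlap between their libraries, for 5 of the 9 genes at 10 DAI (3 of them higher in WR04-6), for 2 at 12 DAI (1 higher) and for 8 at 14 DAI (7 higher). Of all tested genes, 63%, 66.1% and 58.2% did not overlap at these time points, 41.3%, 50% and 43.1% with WR04-6 above QSZ. The median log2 fold change of the 7 DREB1 genes was 1.40, -1.01 and 3.19 at 10, 12 and 14 DAI, where the medians of all tested genes were 0.03, 0.06 and 0.08. The median at 10 DAI turned negative without replicate 3 of WR04-6, where 5 of the 7 genes were below 0 and the middle value was that of OsDREB1H (-0.88), and 3 of the 9 genes were then DEGs.

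**Figure D1:**
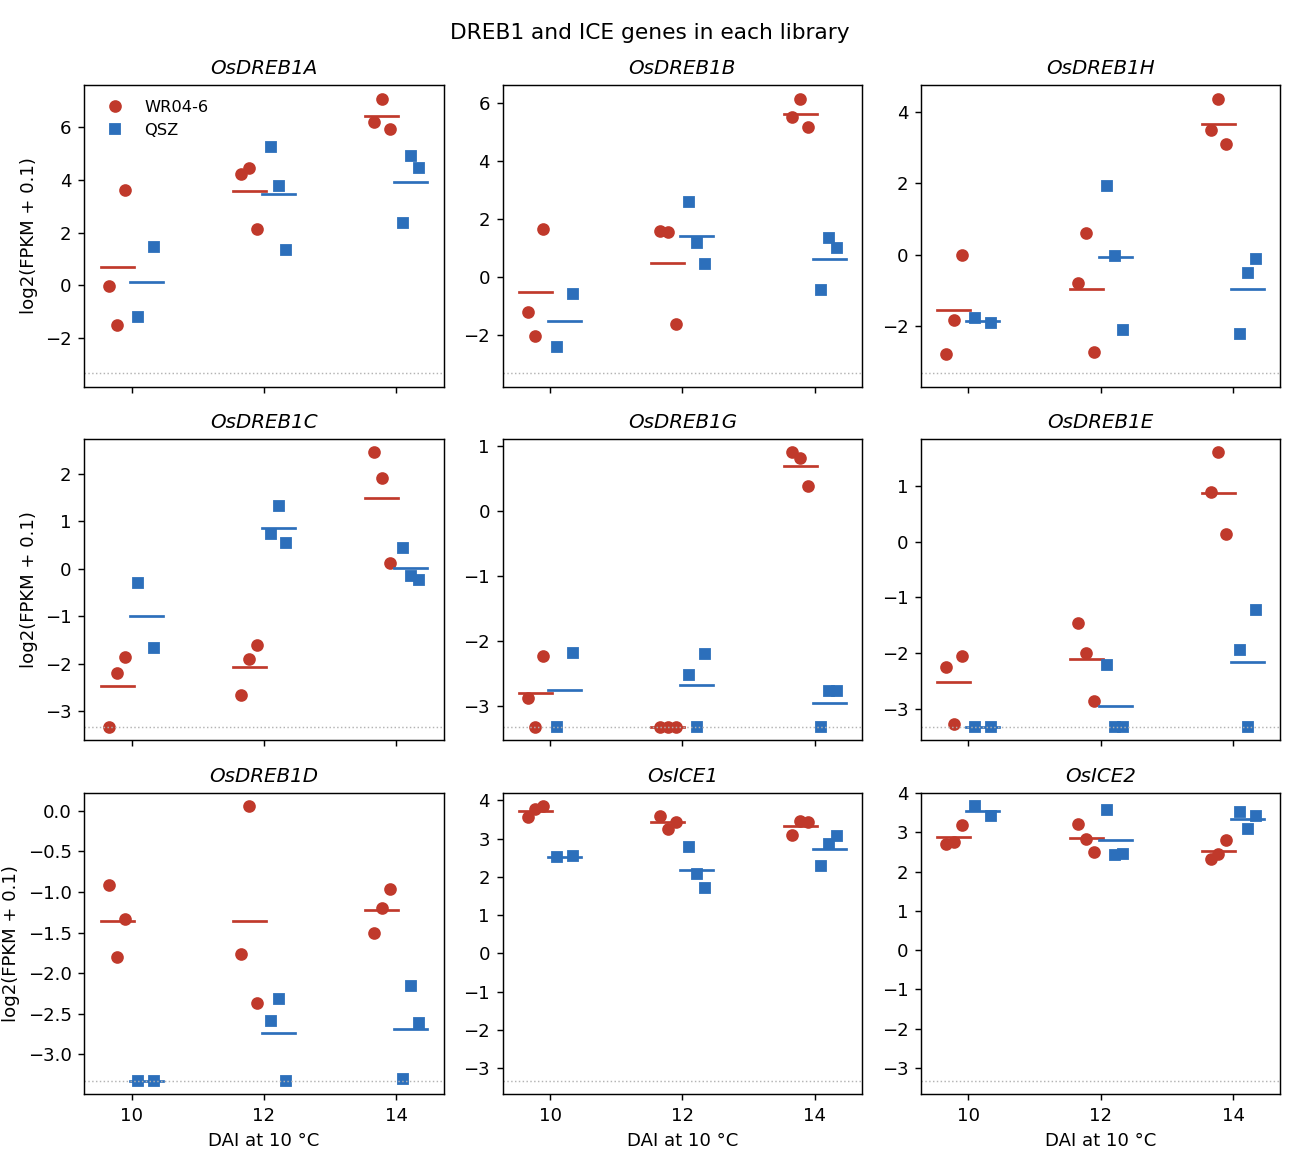
Expression of the 7 DREB1 and 2 ICE genes as log2(FPKM + 0.1) against DAI, with 1 point per library (circles WR04-6, squares QSZ), a bar at each group mean and a dotted line at an FPKM of 0; the y axis differs between panels. The 3 WR04-6 libraries of 14 DAI lie above all other libraries for OsDREB1A, OsDREB1B, OsDREB1E, OsDREB1G and OsDREB1H, while OsICE1 and OsICE2 stay within 3.17 to 14.2 FPKM.

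OsICE1 (LOC_Os11g32100, chromosome 11, 18922046 to 18925259 on the plus strand, MSU v7 gene models), also named OsbHLH002, was higher in WR04-6 in FPKM. Its FPKM was 11.8, 13.6 and 14.2 in WR04-6 at 10 DAI, 12.0, 9.36 and 10.7 at 12 DAI, then 8.45, 10.8 and 10.7 at 14 DAI. In QSZ it was 5.59 and 5.71 at 10 DAI, 6.76, 4.14 and 3.17 at 12 DAI, then 4.80, 7.13 and 8.25 at 14 DAI. The accessions did not overlap at any time point. The edgeR log2 fold changes were 0.99 ± 0.27 (SE, adjusted p = 0.00933), 0.83 ± 0.24 (adjusted p = 0.0105) and 0.29 ± 0.24 (adjusted p = 0.344), so the difference passed the p threshold at 10 and 12 DAI but stayed below a log2 fold change of 1. At 10 DAI the log2 fold change was 1.21 (adjusted p = 0.00233) when limma was run on log2(FPKM + 0.1) and 1.18 (adjusted p = 0.00431) when scaled to library totals, which made it a DEG, and the adjusted p ranged from 0.00176 to 0.0656 over the 29 alternatives. It was also a DEG at 12 DAI by limma (1.23, adjusted p = 0.000669), with library totals (1.20, adjusted p = 0.00113) and without replicate 1 of QSZ at 12 DAI (1.15, adjusted p = 0.00075), with adjusted p of 0.000632 to 0.0477 over 30 alternatives. Averaged over the time points it was 0.70 ± 0.14 (adjusted p = 0.000644), and 1.01 by limma (adjusted p = 2.59e-05), which made it a DEG, with adjusted p of 2.02e-05 to 0.00452 over 28 alternatives.

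OsICE2 (LOC_Os01g70310, chromosome 1, 40714145 to 40717179 on the minus strand), also named OsbHLH001, differed in the other direction. Its FPKM in WR04-6 was 6.40, 6.68 and 9.08 at 10 DAI, 9.19, 7.07 and 5.56 at 12 DAI, then 4.86, 5.35 and 6.84 at 14 DAI. The QSZ libraries had 12.6 and 10.5 at 10 DAI, 11.8, 5.29 and 5.33 at 12 DAI, then 11.4, 8.32 and 10.6 at 14 DAI. The accessions overlapped at 12 DAI, where replicate 1 of QSZ stood at the level of the other QSZ time points and the other 2 replicates at the level of WR04-6. OsICE2 was down-regulated in WR04-6 at 14 DAI (log2 fold change -1.12 ± 0.30, adjusted p = 0.00951) and the log2 fold change was -0.88 ± 0.33 at 10 DAI (adjusted p = 0.0453) and -0.40 ± 0.30 at 12 DAI (adjusted p = 0.290). The fold change at 14 DAI lay near the threshold and was -0.9975 without replicate 1 of QSZ at 14 DAI (adjusted p = 0.0344) and -0.82 by limma on log2(FPKM + 0.1) (adjusted p = 0.0263), with adjusted p of 0.0011 to 0.0398 over 30 alternatives. Neither ICE gene passed the test for a change over time in WR04-6 (adjusted p = 0.632 for OsICE1 and 0.769 for OsICE2) or QSZ (0.380 and 0.456), and the accession by time interaction gave adjusted p of 0.329 and 0.463.

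A group of 3 DREB1 genes lies in tandem on the minus strand of chromosome 9, OsDREB1B (LOC_Os09g35010, 20395224 to 20396205), OsDREB1H (LOC_Os09g35020, 20399334 to 20400263) and OsDREB1A (LOC_Os09g35030, 20403149 to 20404332), with gaps of 3128 and 2885 bp between them. They made up 93.4%, 96.3% and 96.7% of the FPKM summed over the 7 DREB1 genes followed here, in the 3 WR04-6 libraries of 14 DAI. That sum was 138, 235 and 109 FPKM there, against 1.83, 0.878 and 16.7 FPKM in WR04-6 at 10 DAI and 22.2, 27.2 and 4.88 FPKM at 12 DAI. In QSZ the sum was 1.32 and 3.69 FPKM at 10 DAI, 49.5, 19.0 and 5.28 FPKM at 12 DAI and 7.24, 33.7 and 25.8 FPKM at 14 DAI. All 3 WR04-6 libraries of 14 DAI were thus above the other 14 libraries, while the replicates of the other groups differed widely among themselves. The 3 genes are close paralogs, and a split of shared reads between them was not tested. The sum left out OsDREB1I and OsDREB1J. At 14 DAI OsDREB1I was at 15.2 ± 12.2 FPKM in WR04-6 and 17.7 ± 14.8 FPKM in QSZ (SD, n = 3 each). OsDREB1J was at 4.92 ± 2.12 FPKM in WR04-6 and 2.45 ± 2.48 FPKM in QSZ.

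**Figure D2:**
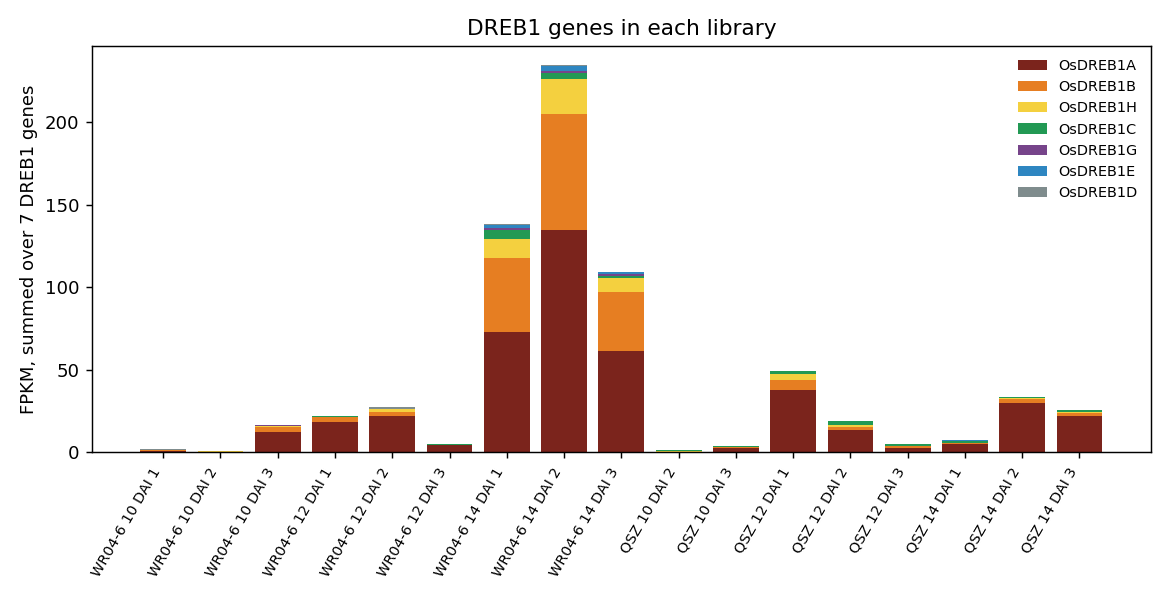
FPKM of the 7 DREB1 genes stacked to their sum in each of the 17 libraries, labelled by accession, DAI and replicate number. The WR04-6 libraries of 14 DAI reach 138, 235 and 109 FPKM, and no other library exceeds 49.5 FPKM.

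OsDREB1B had the lowest adjusted p of the 9 genes at 14 DAI. Its FPKM in WR04-6 was 0.329, 0.142 and 3.00 at 10 DAI, 2.87, 2.79 and 0.22 at 12 DAI, then 45.2, 70.4 and 36.0 at 14 DAI. QSZ had 0.0833 and 0.552 at 10 DAI, 5.90, 2.15 and 1.25 at 12 DAI, then 0.632, 2.40 and 1.86 at 14 DAI. The accessions overlapped at 10 and 12 DAI and were far apart at 14 DAI. It was up-regulated in WR04-6 at 14 DAI with a log2 fold change of 4.68 ± 1.13 (adjusted p = 0.00471), and this call held in all 30 alternatives (adjusted p 2.74e-05 to 0.0219). The log2 fold changes were 1.60 ± 1.31 at 10 DAI (adjusted p = 0.354) and -1.01 ± 0.99 at 12 DAI (adjusted p = 0.421).

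OsDREB1H, the middle gene of the cluster, followed the same course at a lower level. The WR04-6 libraries had an FPKM of 0.0431, 0.178 and 0.897 at 10 DAI, 0.477, 1.41 and 0.0495 at 12 DAI, then 11.2, 20.7 and 8.58 at 14 DAI. Those of QSZ had 0.189 and 0.162 at 10 DAI, 3.68, 0.878 and 0.131 at 12 DAI, then 0.114, 0.595 and 0.816 at 14 DAI. It was up-regulated in WR04-6 at 14 DAI with a log2 fold change of 4.43 ± 1.26 (adjusted p = 0.0127), and the call held in all 30 alternatives (adjusted p 6.56e-05 to 0.0467). Its log2 fold change was 0.85 ± 1.47 at 10 DAI (adjusted p = 0.674) and -1.62 ± 1.14 at 12 DAI (adjusted p = 0.256).

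OsDREB1A had the highest mean FPKM of the 9 genes in WR04-6 at 14 DAI, and its difference between the accessions did not pass the test. WR04-6 had an FPKM of 0.880, 0.25 and 12.1 at 10 DAI, 18.3, 21.8 and 4.26 at 12 DAI, then 72.8, 135 and 61.3 at 14 DAI. In QSZ it was 0.329 and 2.65 at 10 DAI, 38.1, 13.4 and 2.42 at 12 DAI, then 5.08, 29.8 and 21.9 at 14 DAI. The 3 WR04-6 libraries of 14 DAI were above every other library, and QSZ also held more OsDREB1A at 14 DAI than at 10 DAI in each library. The log2 fold change at 14 DAI was 1.97 ± 1.19 (adjusted p = 0.204). A fit of only the 14 DAI libraries gave 1.93 (adjusted p = 0.0398), and the adjusted p ranged from 0.0398 to 0.399 over 30 alternatives. At 10 DAI the log2 fold change was 1.40 ± 1.43 (adjusted p = 0.461) and turned to -1.67 without replicate 3 of WR04-6 (adjusted p = 0.322). At 12 DAI it was -0.62 ± 1.16 (adjusted p = 0.684) and turned to 0.53 without replicate 1 of QSZ (adjusted p = 0.755).

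The shares of OsDREB1B and OsDREB1A in the summed DREB1 FPKM also lay apart between the accessions at 14 DAI. OsDREB1B made up 32.7%, 30.0% and 32.9% of the summed DREB1 FPKM in WR04-6 and 8.73%, 7.11% and 7.21% in QSZ. OsDREB1A made up 52.6%, 57.5% and 56.0% in WR04-6 and 70.2%, 88.2% and 85.0% in QSZ. These shares were not tested, and those of OsDREB1C, OsDREB1D and OsDREB1E overlapped between the accessions. All these shares would be lower in both accessions with OsDREB1I and OsDREB1J in the sum. In the WR04-6 libraries of 12 DAI, OsDREB1B made up 12.9%, 10.2% and 4.50%.

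Across libraries the 3 genes of the cluster were high and low together. The Pearson correlation of log2(FPKM + 0.1) over the 17 libraries was 0.91 for OsDREB1A with OsDREB1B, 0.84 for OsDREB1A with OsDREB1H and 0.95 for OsDREB1B with OsDREB1H. With group means subtracted it was 0.94, 0.81 and 0.82, so the 3 genes also shared the spread between replicates of a group. Outside the cluster, the correlation of OsDREB1A on that scale was 0.57 with OsICE1, 0.52 with OsDREB1G, 0.50 with OsDREB1D, 0.45 with OsDREB1E, 0.44 with OsICE2 and -0.04 with OsDREB1C. These values describe libraries that share tissue, depth and, for the cluster, similar sequence.

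OsDREB1C (LOC_Os06g03670, chromosome 6, 1434731 to 1435857 on the plus strand), also known in rice for effects on photosynthesis and nitrogen use, was down-regulated in WR04-6 at 12 DAI. Its FPKM in WR04-6 was 0, 0.118 and 0.177 at 10 DAI, 0.0576, 0.167 and 0.227 at 12 DAI, then 5.37, 3.67 and 0.990 at 14 DAI. In QSZ it was 0.715 and 0.214 at 10 DAI, 1.56, 2.42 and 1.36 at 12 DAI, then 1.25, 0.80 and 0.752 at 14 DAI. The accessions were apart at 10 and 12 DAI, and at 14 DAI the third replicate of WR04-6 lay within the range of QSZ. At 12 DAI the WR04-6 libraries held 42 estimated counts in all, few fragments, against 450 in QSZ. The difference at 12 DAI was -3.87 ± 0.92 on the log2 scale (adjusted p = 0.00321), and this call held in all 30 alternatives (adjusted p 6.71e-06 to 0.0179). The log2 fold change was -2.46 ± 0.98 at 10 DAI (adjusted p = 0.0568) and 1.54 ± 0.82 at 14 DAI (adjusted p = 0.151). OsDREB1C was a DEG at 10 DAI with DESeq2 (-2.53, adjusted p = 0.0178) and at 14 DAI by limma on log2(FPKM + 0.1) (1.48, adjusted p = 0.0442). The accession by time interaction passed the test (adjusted p = 0.0320), as it did for 8.98% of all tested genes. This call was lost in 9 of the 17 fits that left out a library (highest adjusted p = 0.0751, without replicate 2 of WR04-6 at 12 DAI).

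OsDREB1G (LOC_Os02g45450, chromosome 2, 27652935 to 27654206 on the plus strand), a positive regulator of cold tolerance in rice, was almost absent outside the WR04-6 libraries of 14 DAI. Its FPKM there was 1.77, 1.65 and 1.21, and in the other 14 libraries it ranged from 0 to 0.118. In WR04-6 at 12 DAI all 3 libraries were at 0. OsDREB1G was up-regulated in WR04-6 at 14 DAI with a log2 fold change of 5.20 ± 1.55 (adjusted p = 0.0184). The call was lost without replicate 1 of QSZ at 14 DAI (adjusted p = 0.0518, the highest over 30 alternatives, the lowest being 2.42e-08). The call at 12 DAI (adjusted p = 0.0334) rested on 20 estimated counts in QSZ, about 5 fragments, against 0 in WR04-6. With a floor of 12 estimated counts, about 3 fragments over the group, in place of the 0, it was 2.29-fold lower in WR04-6. This value takes the few QSZ counts as exact and is not a lower limit. The 12 DAI call was lost in 5 of the 17 fits that left out a library and in the limma fits. On log2(FPKM + 0.1), limma gave a log2 fold change of -0.64 (adjusted p = 0.157, with 0.00935 to 0.398 over 30 alternatives). The interaction passed the test for OsDREB1G (adjusted p = 0.0416) and lost the call in 12 of the 17 fits that left out a library, with a highest adjusted p of 0.0862.

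OsDREB1E (LOC_Os04g48350, chromosome 4, 28820861 to 28821913 on the plus strand) had a similar course. Its FPKM in WR04-6 at 14 DAI was 1.75, 2.93 and 1.0, and in the other 14 libraries it ranged from 0 to 0.329. The WR04-6 libraries of 14 DAI were apart from all others, and the log2 fold change against QSZ of 3.19 ± 1.37 did not pass the test (adjusted p = 0.0811). It passed by limma on log2(FPKM + 0.1) (adjusted p = 0.000581) and over 30 alternatives the adjusted p was 6.49e-05 to 0.197. Both QSZ libraries of 10 DAI were at 0 against 23 estimated counts in WR04-6, about 6 fragments, which gave no fold above the floor. Averaged over the time points OsDREB1E was called higher in WR04-6 (adjusted p = 0.0199, 0.000754 to 0.0634 over 28 alternatives), and this call was lost without either library of QSZ at 10 DAI (adjusted p = 0.0513 and 0.0634).

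OsDREB1D (LOC_Os06g06970, chromosome 6, 3310866 to 3311822 on the plus strand), known to raise cold tolerance when expressed in Arabidopsis, was low in all libraries and did not share the high level at 14 DAI. Its FPKM in WR04-6 was 0.428, 0.186 and 0.298 at 10 DAI, 0.195, 0.938 and 0.0946 at 12 DAI, then 0.253, 0.337 and 0.411 at 14 DAI. In QSZ it was 0 and 0 at 10 DAI, 0.0669, 0.101 and 0 at 12 DAI, then 0.00165, 0.125 and 0.0633 at 14 DAI. Only replicate 3 of WR04-6 at 12 DAI overlapped with QSZ of its own time point. The edgeR log2 fold change was 2.49 ± 1.11 at 12 DAI (adjusted p = 0.0796) and 1.94 ± 1.09 at 14 DAI (adjusted p = 0.177). Limma on log2(FPKM + 0.1) called OsDREB1D at both time points (1.385 and 1.466, adjusted p = 0.0329 and 0.0289). At 10 DAI, OsDREB1D had 71 estimated counts in WR04-6 against 0 in QSZ and was called (adjusted p = 0.0182). With the same floor in place of the 0 it was 1.85-fold higher in WR04-6, which takes the WR04-6 counts as exact. Leaving out replicate 2 or 3 of QSZ at 10 DAI ended this call (adjusted p = 0.0802 and 0.0931), as did dividing the estimated counts by 4 (0.0564) and limma on log2(FPKM + 1) (0.0924), with 0.00356 as the lowest of 28 alternatives. Averaged over the time points OsDREB1D was called higher in WR04-6 (adjusted p = 0.00192, 7.25e-05 to 0.0106 over 27 alternatives) and the call held in the 17 fits that left out a library, with the fold not given because a group was at 0. The log2 fold change fell below the threshold of 1, and the call was lost, by limma on log2(FPKM + 1) (0.36) and with quantile normalization (0.9952). On that average 4 of the 9 genes were DEGs, OsDREB1B, OsDREB1D and OsDREB1E higher and OsDREB1C lower, against 28.5% of all tested genes, 14.5% higher and 14% lower. The log2 fold change was 1.75 ± 0.65 for OsDREB1B (adjusted p = 0.0283) and -1.60 ± 0.51 for OsDREB1C (adjusted p = 0.0133). For each of these genes the average joins time points of opposite sign. The OsDREB1B call was lost with quantile normalization (adjusted p = 0.0830) and without replicate 3 of WR04-6 at 10 DAI (0.134) or replicate 1 at 12 DAI (0.0526). Limma with 0.1 or 1 added to FPKM lost the OsDREB1C call (log2 fold change -0.98 and -0.21). The average held 1 called gene without replicate 2 of QSZ at 10 DAI.

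**Figure D3:**
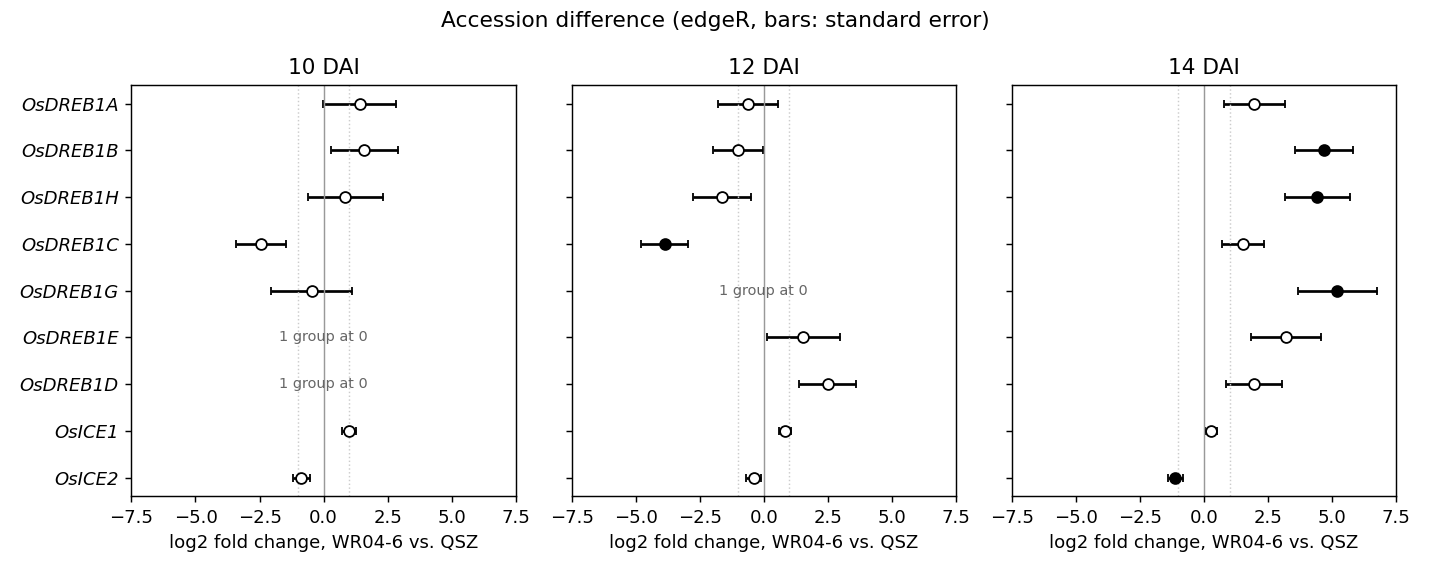
Log2 fold change of WR04-6 vs. QSZ for the 9 genes at 10, 12 and 14 DAI (edgeR, all 17 libraries), with SE bars, filled points for DEGs and dotted lines at -1 and 1; comparisons with a group at 0 are marked and have no point. OsDREB1B, OsDREB1G and OsDREB1H lie at 4.68, 5.20 and 4.43 at 14 DAI, and OsDREB1C lies at -3.87 at 12 DAI.

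The time course within WR04-6 was tested next. For 6 of the 7 DREB1 genes, all except OsDREB1D, the 3 libraries of 14 DAI were above the 6 earlier WR04-6 libraries, as was the case for 4.17% of all tested genes. For 5 of the 7 (OsDREB1A, OsDREB1B, OsDREB1E, OsDREB1G and OsDREB1H) they were above the other 14 libraries of both accessions, as was the case for 2.1% of all tested genes. Neither ICE gene had this order. Among the WR04-6 libraries, OsDREB1I also did not have it, with 1.18 to 22.3 FPKM at 14 DAI and 1.57 to 15.1 FPKM at 12 DAI. OsDREB1J was at 3.44 to 7.35 FPKM at 14 DAI and at most 1.80 FPKM before in WR04-6, but reached 5.27 FPKM in QSZ at 14 DAI. A change over time in WR04-6 passed the test for OsDREB1C (adjusted p = 0.0171), OsDREB1B (0.0273) and OsDREB1G (0.0486), 3 of the 9 genes against 1.06% of all tested genes. OsDREB1H (0.0698), OsDREB1E (0.229), OsDREB1A (0.232) and OsDREB1D (0.987) did not pass. The count was 0 of 9 without any of the 3 WR04-6 libraries of 12 DAI or without replicate 1 or 2 of 14 DAI, 1 without replicate 1 of 10 DAI or replicate 3 of 14 DAI, and 5 without replicate 3 of 10 DAI. In that last library the 3 genes of the cluster were higher than in the other 2 of its group.

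Between 12 and 14 DAI in WR04-6, OsDREB1C rose by 4.4 ± 0.93 on the log2 scale (adjusted p = 0.0413). OsDREB1G rose from 0 to 402 estimated counts (adjusted p = 0.0494), 39.4-fold with the floor in place of the 0. These were 2 of the 9 genes, against 0.688% of all tested genes, 0.652% higher at 14 DAI. Of the 17 fits that left out a library, 9 lost the call of OsDREB1C and 10 that of OsDREB1G. Both calls were lost without any of the WR04-6 libraries of 12 DAI or replicate 1 or 2 of 14 DAI. For OsDREB1C the losses included fits without a library outside this contrast. The adjusted p was at most 0.187 for OsDREB1C (without replicate 1 of 12 DAI) and 0.207 for OsDREB1G (without replicate 3 of 12 DAI). The log2 fold change was 4.67 ± 1.12 for OsDREB1B (adjusted p = 0.0700), 4.37 for OsDREB1H (adjusted p = 0.142), 3.56 for OsDREB1E (adjusted p = 0.295) and 2.59 for OsDREB1A (adjusted p = 0.411). DESeq2 gave adjusted p of 0.00127 for OsDREB1B and 0.00366 for OsDREB1H, where the 29 alternatives ranged from 0.00127 to 0.257 and from 0.00294 to 0.419.

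Within QSZ none of the 9 genes passed the test for a change over time (edgeR, lowest adjusted p = 0.193 for OsDREB1B), although 21% of all tested genes did. In that test none had an unadjusted p below 0.05. Without replicate 1 of QSZ at 12 DAI, the QSZ library with the highest summed DREB1 FPKM, 3 genes passed (OsDREB1E, OsICE1 and OsICE2, adjusted p 0.0446, 0.0496 and 0.0455). For 12 vs. 10 DAI in QSZ the log2 fold change was 3.69 ± 1.56 for OsDREB1A (adjusted p = 0.0926) and 3.29 ± 1.36 for OsDREB1B (adjusted p = 0.0844). The median of the 7 DREB1 genes was 3.29 for 12 vs. 10 DAI and 2.28 for 14 vs. 10 DAI. In each contrast 3 of the 9 genes had an unadjusted p below 0.05 and none was called. The share of all tested genes at that unadjusted threshold was not computed. QSZ had only 2 libraries at 10 DAI.

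Of other regulators known to act on ICE or DREB1 genes, 20 were in the table. Among them 2 were higher and 1 lower in WR04-6 at 10 DAI, 3 higher and 4 lower at 12 DAI and none either way at 14 DAI in the main edgeR fit. Of all tested genes, 12.1%, 16.3% and 10.5% were higher and 11.4%, 13.2% and 10.9% lower at these time points. At 14 DAI, 8 of the 20 were higher and 3 lower at an unadjusted p below 0.05 in edgeR. Of these, 6 and 2 also passed after adjustment but with a log2 fold change under 1, and limma called 3 higher. The shares of all tested genes under these other rules were not computed, so these counts are not a result about the regulators. The median log2 fold change of the list was 0.26, 0.11 and 0.25 in turn at 10, 12 and 14 DAI. OsMAPK3, a kinase that phosphorylates OsICE1 in rice, changed over time in WR04-6 (adjusted p = 0.0173). Its FPKM was 6.17 ± 1.52 (SD, n = 3), 5.51 ± 0.61 and 16.7 ± 7.31 at 10, 12 and 14 DAI in WR04-6 and 12.0 ± 0.88 (n = 2), 14.8 ± 3.55 and 11.3 ± 0.98 in QSZ. It was down-regulated in WR04-6 at 10 DAI (log2 fold change -1.20 ± 0.31, adjusted p = 0.00642) and 12 DAI (-1.79 ± 0.29, adjusted p = 0.000186). The log2 fold change at 14 DAI was 0.28 ± 0.28 (adjusted p = 0.446). Within WR04-6 it rose by 1.59 ± 0.29 on the log2 scale from 12 to 14 DAI (adjusted p = 0.0185).

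Other members of the list that differed were OsPIL16, a bHLH factor that acts on OsDREB1B in rice with phytochrome B, OsMAPK6 and the CAMTA genes, calmodulin-binding factors that bind CBF promoters in Arabidopsis. OsPIL16 was up-regulated in WR04-6 at 12 DAI (log2 fold change 2.68 ± 0.61, adjusted p = 0.00238). OsMAPK6 was up-regulated at 12 DAI (1.44 ± 0.11, adjusted p = 2.39e-07). Neither gene was a DEG at 10 or 14 DAI in the main edgeR fit, but in FPKM all WR04-6 libraries were above all QSZ libraries. OsPIL16 was at 2.63 to 5.02 FPKM in WR04-6 and 0.0882 to 1.64 FPKM in QSZ, and OsMAPK6 at 34.3 to 42.7 and 11.1 to 18.5 FPKM. Of 6 CAMTA genes, 3 were down-regulated and 1 up-regulated at 12 DAI, and 2 were up-regulated at 10 DAI. OsHOS1, the E3 ligase that targets ICE1, and OsSIZ1, a SUMO ligase, had log2 fold changes of 0.26 to 0.78 and 0.36 to 0.69 over the time points and stayed below the fold threshold. COLD1, a regulator of G-protein signalling in cold sensing, had log2 fold changes of 0.16 to 0.29, and OsMYBS3, a repressor of DREB1 genes, of -0.53 to -0.40, and neither was a DEG.

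Several genes downstream in the cold response were down-regulated in WR04-6. Of 9 such genes in the table, 4 were down-regulated at 10 DAI, 5 at 12 DAI and 4 at 14 DAI, and none was up-regulated in edgeR (OsTPP2 was higher at 10 DAI at an adjusted p of 0.00517 with a log2 fold change of 0.95, and limma called 1 gene higher at 10 DAI and 1 at 12 DAI). The median log2 fold change of the list was -1.31, -1.54 and -1.23, and of all tested genes 11.4%, 13.2% and 10.9% were lower at these time points. OsLIP9 and RAB21, which encode dehydrins, OsWCOR413, a cold-regulated membrane protein gene, and OsGolS1, which encodes galactinol synthase, were down-regulated at all 3 time points. At 14 DAI their log2 fold changes were -2.79 ± 0.51, -2.51 ± 0.36, -1.62 ± 0.19 and -4.15 ± 0.59 (adjusted p = 0.000711, 0.000107, 1.76e-05 and 8.15e-05). OsGolS1 was at 15.2 ± 5.85 FPKM in WR04-6 and 219 ± 144 FPKM in QSZ at 14 DAI (SD, n = 3 each). RAB21 is also a late-embryo gene, and all 5 seed storage and late-embryo markers (GluA1, GluA2, Emp1, oleosin and RAB21) had lower medians in WR04-6. Their summed FPKM was 2394 to 5085, 3453 to 4074 and 2231 to 3614 in WR04-6 at 10, 12 and 14 DAI and 7797 to 10315, 18206 to 21781 and 13831 to 16046 in QSZ, with none at 0. Their part in the lower level of the downstream genes was not tested.

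None of the 9 downstream genes passed the test between 12 and 14 DAI in WR04-6 in edgeR or limma. Of these, 3 had an unadjusted p below 0.05 (2 of them higher at 14 DAI), with the share of all tested genes not computed. OsTPP1, a trehalose-6-phosphate phosphatase gene that OsICE1 activates in rice, had the highest of these log2 fold changes (2.92 ± 0.93, adjusted p = 0.190), with 0.671 ± 0.725 FPKM at 12 DAI and 5.18 ± 3.70 FPKM at 14 DAI (SD, n = 3 each). Among 5 other DREB genes, OsDREB2C, a DREB2-type factor, was down-regulated in WR04-6 at all 3 time points (log2 fold change -3.36 ± 0.58, -4.18 ± 0.56 and -3.97 ± 0.56, adjusted p = 0.000382, 4.11e-05 and 8.53e-05). OsDREB1I and OsDREB1J were not DEGs. Of the 215 tested genes with the GO term response to cold, 10 DAI had 15 higher and 36 lower in WR04-6, 12 DAI had 35 higher and 44 lower, and 14 DAI had 19 higher and 31 lower, where all tested genes gave 12.1% and 11.4%, 16.3% and 13.2%, and 10.5% and 10.9%. By limma on log2(FPKM + 0.1), where FPKM shifts the median of all genes, the splits were 26 to 28, 59 to 29 and 38 to 21. In edgeR, 26 of the 215 genes were called in the same direction at all 3 time points, 7 higher and 19 lower in WR04-6. The matching shares of all tested genes were not computed for the limma splits or for this count.

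**Figure D4:**
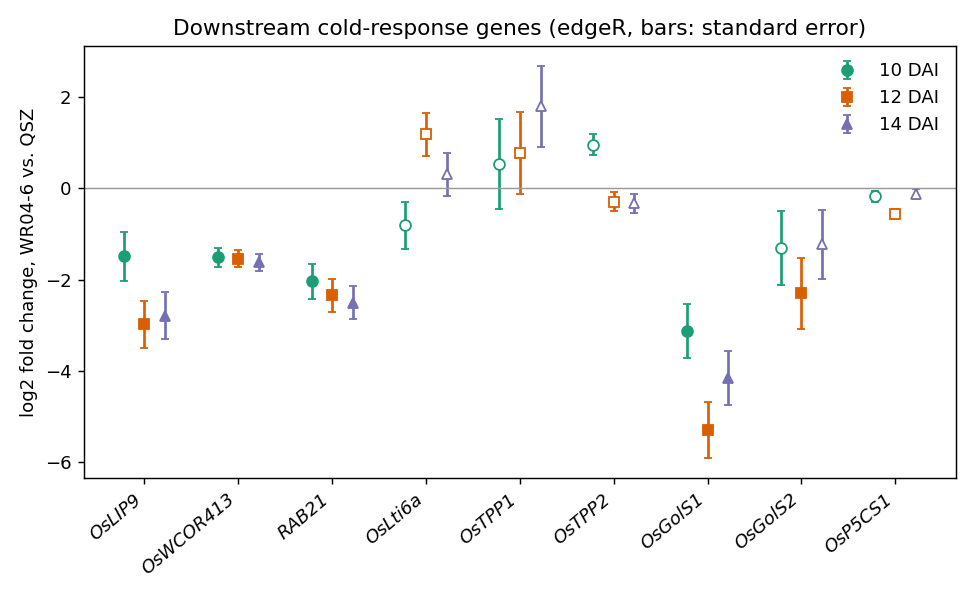
Log2 fold change of WR04-6 vs. QSZ (edgeR) for the 9 downstream cold-response genes at 10 (circles), 12 (squares) and 14 DAI (triangles), with SE bars and filled symbols for DEGs. OsLIP9, OsWCOR413, RAB21 and OsGolS1 are filled and below 0 at all 3 time points, and no gene is filled above 0.

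The genes most alike in expression were found by Pearson correlation of log2(FPKM + 0.1) over the 17 libraries with the mean of each accession subtracted, among 16072 genes. For OsDREB1A they were OsDREB1B (0.91), LOC_Os01g49830, annotated as an AP2/ERF and B3 domain protein (0.89), and LOC_Os03g60080, annotated as a NAC domain protein (0.88). The AP2/ERF and B3 gene changed over time in both accessions (adjusted p = 0.0129 in WR04-6 and 0.0389 in QSZ), as did the NAC gene (0.0106 and 0.00537), and both were down-regulated in WR04-6 at 10 and 12 DAI. LOC_Os01g49830 was also down-regulated at 14 DAI (log2 fold change -1.34 ± 0.32, adjusted p = 0.00412). The NAC gene LOC_Os03g60080 was at 118.9 ± 5.85 FPKM in WR04-6 and 155.8 ± 38.8 FPKM in QSZ at 14 DAI (SD, n = 3 each) and was not called at 14 DAI (log2 fold change -0.67 ± 0.24, adjusted p = 0.0425). For OsICE1 they included a receptor kinase-like gene (LOC_Os02g43250, 0.92) and the cytochrome P450 gene CYP90A4 (LOC_Os12g04480, 0.90). For OsICE2 they were the cytochrome P450 gene CYP90A3 (LOC_Os11g04710, 0.88), the growth regulator GIF1 (LOC_Os03g52320, 0.87) and the auxin-responsive gene ARG7 (LOC_Os04g56690, 0.84).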

How the data were processed

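PolyA RNA from germinating seeds was sequenced as 150-base read pairs with a strand-marking kit. The submitters' processing notes name cutadapt 1.9, HISAT2 2.0.4 and StringTie 1.3.4d, and the study mapped the reads to the rice genome of Phytozome (MSU v7 gene models). The program that counted fragments is not given in the sources used here. In the single table used, the authors deposited FPKM (fragments scaled to gene length and library size) and estimated counts per gene and library. The deposited estimated counts are whole numbers whose most frequent low value is 4 in every library, so 1 fragment was taken as about 4 estimated counts, and the counting error of low genes is larger than their counts imply. Reads of both accessions were mapped to the same genome, and the effect on single genes was not tested.

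Libraries were grouped by their labels. Genes that reached 0.1 FPKM in 2 or more libraries entered the quasi-likelihood F-test of edgeR 4.0.16 (R 4.3.3) on the estimated counts with TMM scaling, over all 17 libraries in 6 groups. Changes over time and the interaction were F-tests with 2 degrees of freedom, called at an adjusted p below 0.05. Contrasts between single time points were added after values were seen. The SE is the absolute log2 fold change divided by the square root of F. The replicates are biological samples per the study, with separate dishes not stated, so p-values measure the spread between these samples. Alternatives were other scalings, filters and pseudocounts, estimated counts divided by 4, DESeq2 1.42.0, limma 3.58.1 on log2(FPKM + 0.1), a replicate block and leaving out each library. The scripts were tested on simulated data.

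All 9 listed genes in the table are named. The 3 genes most alike were named for the DREB1 gene of highest mean FPKM and for each ICE gene. For OsICE1, 1 of them is not reported here. The genes and the lists (regulators upstream of DREB1, downstream genes, other DREB genes, seed, germination and leaf markers) were chosen with earlier results of these data known. No comparison columns of the authors were used. OsEIL1, OsLti6b and OsDREB2E were not analysed here. No sequence was read and promoter motifs were not searched.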

Additional observations from a re-analysis of the deposited data

Results flagged for a closer look

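For 2 of the 9 genes the accession difference changed with time by a test of the interaction itself (edgeR, 2 degrees of freedom, BH-adjusted over all tested genes). For OsDREB1C the adjusted p was 0.032, with lower values in WR04-6 in every library at 10 and 12 DAI and overlapping values at 14 DAI. For OsDREB1G it was 0.0416, with 0 to 0.118 FPKM in both accessions at 10 and 12 DAI and 1.21 to 1.77 FPKM in WR04-6 at 14 DAI. Both calls were lost when any of the 3 WR04-6 libraries of 12 DAI was left out, and over 28 alternatives the adjusted p ranged from 0.000454 to 0.0751 for OsDREB1C and from 0.000461 to 0.0862 for OsDREB1G. OsDREB1B (adjusted p = 0.0601) and OsDREB1H (0.0769) did not pass.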

How the results depend on the processing

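The calls of OsDREB1B and OsDREB1H at 14 DAI and of OsDREB1C at 12 DAI held under every alternative run. The replicate numbers were not taken to pair the samples in the main fit (the correlation of deviations from the group means was over 0.1 for 3 of 8 pairs, -0.26 to 0.299). At 14 DAI the correlations were 0.299, 0.0613 and 0.167. With 2 or 3 libraries per group these values cannot settle whether libraries of the same replicate number shared a batch. With the replicate block the members called fell to 0 for the change over time in WR04-6, the interaction and 14 vs. 12 DAI in WR04-6, and no count of members between accessions moved.

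At 10 DAI, library totals, DESeq2, limma with 0.1 or 0.01 added and quantile normalization gave 2 genes (1 in the main fit) and the FPKM filter of 1 gave 0. At 12 DAI, library totals gave 4 (main 2), and quantile normalization and the libraries of 12 DAI alone gave 1. Averaged over time, limma with 1 added gave 1 and quantile normalization 2 (main 4). For the change over time in WR04-6, counts divided by 4, limma with 0.1 or 1 added and quantile normalization gave 5 (main 3). For the interaction, counts divided by 4, DESeq2 and quantile normalization gave 4, limma with 1 added 5 and with 0.01 added 1 (main 2). For 14 vs. 12 DAI in WR04-6, median-ratio factors and no filter gave 1, DESeq2 4, and limma with 0.1 or 1 added and quantile normalization 5 (main 2). Among upstream regulators, limma gave 6, 4 and 3 at 10, 12 and 14 DAI and counts divided by 4 gave 2 at 14 DAI (main 3, 7 and 0).

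Leaving out each library in turn, the counts were 1 to 3 at 10 DAI, 1 to 3 at 12 DAI, 2 to 5 at 14 DAI (2 without replicate 1 of QSZ at 14 DAI), 1 to 5 averaged (1 without replicate 2 of QSZ at 10 DAI), 0 to 5 and 0 to 3 for the change over time in WR04-6 and QSZ, 0 to 3 for the interaction and 0 to 3 for 14 vs. 12 DAI. Leaving out both QSZ libraries of 10 DAI, chosen after seeing the data, moved no count.

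Log2 fold changes that turned were those of genes with no call. With limma, OsDREB1A at 12 DAI was 0.14, 0.15 and 0.088 (0.1, 0.01 and 1 added), OsICE2 at 12 DAI 0.0387, 0.0400 and 0.0279, OsDREB1D from 12 to 14 DAI in WR04-6 0.13, 0.30 and, with quantile normalization, 0.0293 (0.18 with the replicate block), OsDREB1G at 10 DAI 0.10 (0.01 added) and OsDREB1H at 10 DAI -0.0572 (quantile). OsDREB1G averaged over time was 0.18 (counts divided by 4), 0.99, 1.15 and 0.40 (0.1, 0.01 and 1 added) and 0.56 (quantile), and this average holds a group at 0. Without 1 library the ranges were -1.67 to 3.39, -1.13 to 0.53 and -0.11 to 1.55 for OsDREB1A at 10 DAI, at 12 DAI and averaged, -0.76 to 3.17 for OsDREB1B at 10 DAI, -0.74 to 1.15 for OsDREB1D from 12 to 14 DAI, -1.92 to 5.19 and -0.87 to 1.46 for OsDREB1G at 10 DAI and averaged, -0.88 to 1.38 for OsDREB1H at 10 DAI and -0.61 to 0.0538 for OsICE2 at 12 DAI. The cause was not tested.

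Over all tested genes, 14 vs. 12 DAI in WR04-6 gave 387 DEGs with DESeq2, 228 with limma and 247 with quantile normalization (main 151), the change over time in WR04-6 gave 916, 410 (1 added), 404 and 152 with the block (main 232), the interaction gave 4188 with DESeq2 (main 1970), and the average gave 3775 with limma (1 added, main 6262). Depth limits OsDREB1D in all groups, and OsDREB1E and OsDREB1G outside the WR04-6 libraries of 14 DAI, where they rest on few fragments. OsDREB1C also rests on few fragments in WR04-6 at 10 and 12 DAI (27 and 42 estimated counts over the group) and in QSZ at 10 DAI (44). The same holds for OsDREB1B and OsDREB1H in QSZ at 10 DAI (31 and 15 estimated counts). The search for promoter motifs was not run.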

Other observations

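A set of 8 circadian clock genes, chosen after values were seen, were compared over the same libraries, since DREB1 genes also follow the time of day. None of the 8 (OsLHY, OsPRR1, OsPRR37, OsPRR73, OsPRR59, OsPRR95, OsGI and OsELF3) passed the test for a change over time in WR04-6 (edgeR; 1 had an unadjusted p below 0.05), and OsPRR95 had the lowest adjusted p (0.134, with log2 fold changes of 0.52 from 12 to 14 DAI and 0.87 from 10 to 14 DAI, adjusted p = 0.315 and 0.104). In QSZ, OsLHY, OsPRR37 and OsPRR73 changed over time (adjusted p = 0.0493, 0.00185 and 0.0438). Of all tested genes 1.06% changed over time in WR04-6 and 21% in QSZ. Between the accessions at 10 DAI, only OsLHY was a DEG (edgeR, log2 fold change 1.40 ± 0.12, adjusted p = 1.48e-06, higher in WR04-6). At 12 DAI only OsGI was a DEG (-1.01 ± 0.18, adjusted p = 0.000375). None of the 8 was a DEG at 14 DAI, where OsLHY was at 0.92 ± 0.11 (adjusted p = 1.48e-05). Of all tested genes, 23.6%, 29.5% and 21.3% were DEGs at 10, 12 and 14 DAI.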
